A study of Mus musculus with 6 samples.

Results

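The 34 genes described here encode collagens, other extracellular matrix proteins, smooth muscle type contractile proteins and a few receptors and secreted factors that are typical of fibroblasts and related mesenchymal cells. They were picked by name out of the 55335 genes of an RNA sequencing table of cultured mouse macrophages, because their transcripts stood high in the 2 libraries that carry replicate number 2. The values in number 2 against numbers 1 and 3 therefore chose the genes and are given as a description, with no test. All cells were bone marrow-derived macrophages of wildtype male C57BL/6 mice aged 6 to 8 weeks and weighing 22 to 25 g, used after 6 days of culture. In the CM + 4OI group, 3 cultures received conditioned medium (CM) mixed 1:1 for 4 h together with 4-octyl itaconate (4OI) at 200 µM. 4OI is an ester of itaconate, a metabolite of activated macrophages, that can enter cells. In the CM group, 3 cultures received the same medium alone. The medium came from pancreatic acinar cells stimulated with caerulein, a peptide that overstimulates them, at 200 nM for 5 h. Both groups thus carry CM, and macrophages without it were not analysed here. The labels speak of independent cultures and number them 1 to 3 in each group, without saying what a number marks or whether a culture came from 1 mouse or several.

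Fibroblasts build the matrix around other cells. They secrete fibrillar collagens that are folded by chaperones and crosslinked outside the cell, they lay down fibronectin and proteoglycans, and on activation they form actin stress fibres with smooth muscle actin. Bone marrow holds such stromal cells beside the blood-forming cells, and macrophages themselves make some of these products, among them fibronectin and the protease inhibitor TIMP1.

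Depth was estimated at 18.2 to 25.6 M fragments per library (M, mega), and 10252 to 10658 genes per library reached 1 FPKM (fragments per kilobase of transcript, scaled to the library's mapped fragments, so a level per length). The labelled cell type was plain in every library. The 21 macrophage markers summed to 23598, 23189 and 24003 FPKM in CM + 4OI and 23227, 22977 and 23937 FPKM in CM. These sums were lowest in number 2 of each group, by a small margin. Number 2 stood above the other 4 libraries for 1 of the 20 that could be tested and below them for 3. Over all genes that could be tested, the shares were 7.42% above and 2.5% below. Csf1r, the receptor that macrophages need to survive, measured 297, 257 and 265 FPKM in CM + 4OI and 308, 258 and 271 FPKM in CM in libraries 1, 2 and 3. It was 1 of the 3 markers that were lower in number 2. Against this background, the 34 genes summed to 73.1, 313.8 and 94.0 FPKM in CM + 4OI and to 96.5, 450.1 and 96.1 FPKM in CM, which is between 0.0246% and 0.155% of all FPKM of a library. In bulk RNA, fewer cells of a type and less RNA per cell cannot be told apart.

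Both libraries numbered 2 lay above all other 4 libraries for 33 of the 34 genes, and for all 28 of those with a mean of at least 1 FPKM, the level needed to enter the test across genes. Among the 10468 genes at that level, 777 (7.42%) had this pattern. The exception was Lum. Relative to the mean of numbers 1 and 3 of the same group, number 2 was at a median of 3.81 times that level in CM + 4OI and 4.796 times in CM, whereas the median over all 10468 genes was 1.02 in CM + 4OI and 1.02 in CM. The ratio reached 2 in both groups for 32 of the 34 genes, and for 27 of the 28 at or above 1 FPKM, against 85 (0.812%) of all tested genes. These shares only restate how the genes were chosen. The ratio was larger in CM than in CM + 4OI for 29 of the 34 genes, and for 5612 of the 10468 tested genes. This difference rests on the values that chose the genes and was not tested.

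**Figure D1:**
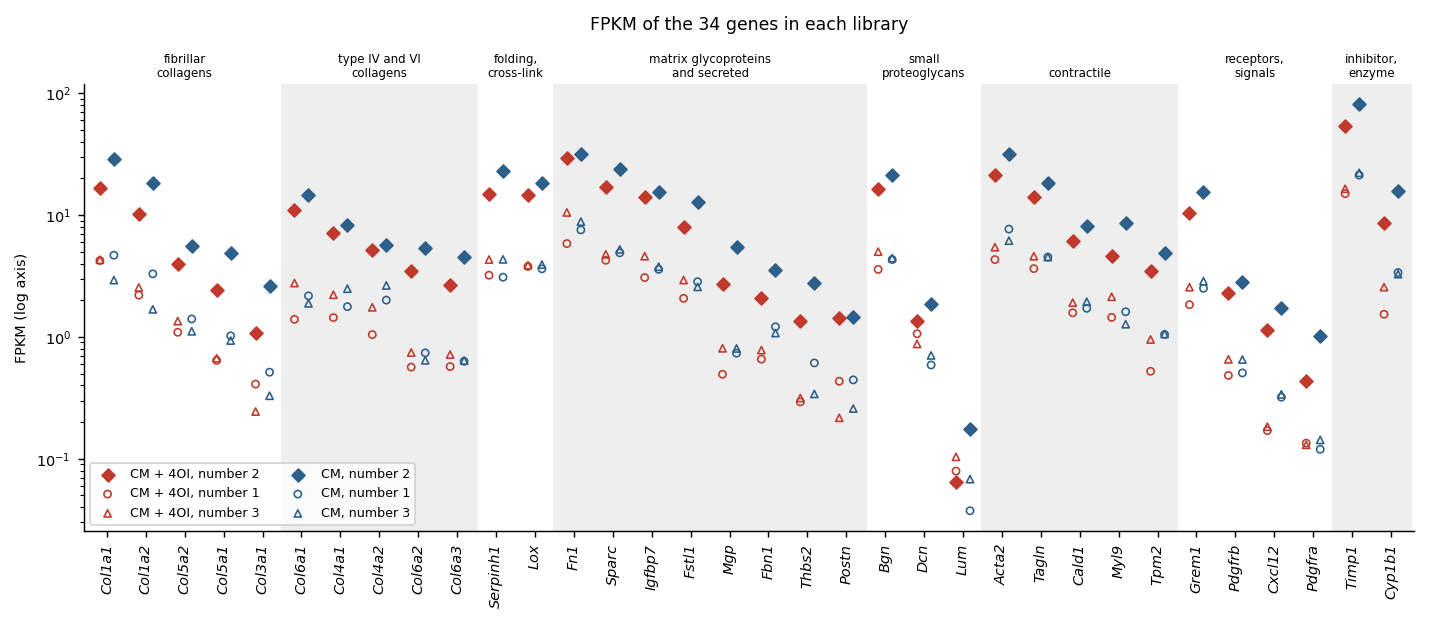
FPKM of the 34 genes in each of the 6 libraries on a log axis, grouped by role, with 1 symbol per replicate number and CM + 4OI set apart from CM. The 2 libraries numbered 2 lie above the other 4 for every gene but Lum, and Timp1 is the highest gene in each library.

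The genes lie on 16 chromosomes. In 4 cases a pair of them are close neighbours. Col3a1 and Col5a2 lie 24.6 kb apart on chromosome 1. Col6a2 and Col6a1 lie 85.2 kb apart and Dcn and Lum 47.0 kb apart on chromosome 10. Col4a1 and Col4a2 start head to head on chromosome 8, where the gene models overlap by 22 bp. RefSeq promoter windows, from 250 bases before to 50 bases after a start (300 bases, GRCm38.p6), were matched for 25 of the 34 genes, as 28 windows. Short motifs were searched on both strands, with any overlap between motifs allowed. GGAATG, the core bound by TEAD factors, was in 5 of the 28 windows (Acta2, Cald1, Col3a1, Col6a2 and Timp1) and in 14.7% of all 32851 windows. CCAAT, the element of NF-Y, was in 8 windows and in 37.4% of all. The CArG box is the element of serum response factor found at smooth muscle genes. Its strict form, CCWWWWWWGG with W for A or T, was in 1 window, that of Myl9, and in 1.63% of all. Sites with a G or C among the middle bases were not counted or marked, such as ccctatatgg and ccttgtttgg in the Acta2 window below. TATAAA, the TATA box, was in 4 windows (13.6% of all), TGANTCA, an AP-1 type element, in 2 (7.81%) and TGACNNNGC, the antioxidant response element core bound by NRF2, in 3 (Col4a2, Col6a2 and Postn; 12.4%). A match of letters is a description and does not show binding. The 4 windows below are shown because they belong to the pair of genes with a common start region, to the gene with the highest level and to a pair of contractile genes. Capitals mark CCAAT and TGACNNNGC in Col4a2, GGAATG and the reverse complement of CCAAT in Timp1, GGAATG in Acta2 and the CArG box in Myl9. The windows are chr8:11312555-11312854 on the plus strand, chrX:20869916-20870215 on the plus strand, chr19:34255324-34255623 on the minus strand and chr2:156775214-156775513 on the plus strand. The window of Col4a1 on the minus strand shares 78 bases with that of Col4a2.
Col4a2: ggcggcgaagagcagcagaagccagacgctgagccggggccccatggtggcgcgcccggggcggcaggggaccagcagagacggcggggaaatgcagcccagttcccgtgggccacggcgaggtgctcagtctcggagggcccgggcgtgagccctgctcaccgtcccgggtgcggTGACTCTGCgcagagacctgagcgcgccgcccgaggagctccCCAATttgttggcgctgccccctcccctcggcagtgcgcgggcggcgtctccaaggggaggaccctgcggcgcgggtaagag
Timp1: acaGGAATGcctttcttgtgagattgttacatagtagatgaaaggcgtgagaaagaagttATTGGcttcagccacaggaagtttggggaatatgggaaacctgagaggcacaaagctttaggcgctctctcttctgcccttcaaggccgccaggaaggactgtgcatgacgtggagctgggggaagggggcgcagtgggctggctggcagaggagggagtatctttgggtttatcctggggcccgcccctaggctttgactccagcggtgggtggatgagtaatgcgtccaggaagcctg
Acta2: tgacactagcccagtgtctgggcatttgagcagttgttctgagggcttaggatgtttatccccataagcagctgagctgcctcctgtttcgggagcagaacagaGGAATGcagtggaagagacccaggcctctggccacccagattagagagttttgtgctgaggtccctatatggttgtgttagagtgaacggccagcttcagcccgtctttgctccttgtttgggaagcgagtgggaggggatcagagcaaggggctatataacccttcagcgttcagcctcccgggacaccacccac
Myl9: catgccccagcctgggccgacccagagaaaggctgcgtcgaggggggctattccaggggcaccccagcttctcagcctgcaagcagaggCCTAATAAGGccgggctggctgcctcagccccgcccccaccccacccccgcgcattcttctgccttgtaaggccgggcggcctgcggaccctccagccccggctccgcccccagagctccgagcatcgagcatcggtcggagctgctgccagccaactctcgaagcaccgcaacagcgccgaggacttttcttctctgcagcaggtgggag

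The fibrillar collagens form the rope-like fibres of connective tissue. Col1a1, the main chain of type I collagen (ENSMUSG00000001506, chr11:94936224-94953042, plus strand, mm10), measured 16.6 FPKM in number 2 and 4.24 and 4.30 FPKM in numbers 1 and 3 of CM + 4OI, and 29.0 FPKM in number 2 and 4.69 and 2.93 FPKM in numbers 1 and 3 of CM. Col1a2, its partner chain (ENSMUSG00000029661, chr6:4504814-4541544, plus strand), measured 10.3 FPKM in number 2 and 2.20 and 2.54 FPKM in numbers 1 and 3 of CM + 4OI, and 18.3 FPKM in number 2 and 3.29 and 1.68 FPKM in numbers 1 and 3 of CM. Number 2 was far above numbers 1 and 3 for both chains, the more so in CM, with ratios for Col1a1 of 3.89 in CM + 4OI and 7.61 in CM and for Col1a2 of 4.33 in CM + 4OI and 7.34 in CM. Col1a1 FPKM over Col1a2 FPKM was nonetheless alike in number 2 and the other numbers, at 1.92, 1.62 and 1.69 in CM + 4OI and 1.42, 1.59 and 1.74 in CM in libraries 1, 2 and 3. Col5a1 and Col5a2, chains of the type V collagen that sets fibril width, stood at 2.42 and 3.98 FPKM in number 2 of CM + 4OI and at 4.93 and 5.61 FPKM in number 2 of CM. In numbers 1 and 3 they ranged from 0.642 to 1.35 FPKM in CM + 4OI and from 0.934 to 1.41 FPKM in CM. Col3a1, the type III chain that is abundant in soft tissue, stayed under the mean of 1 FPKM needed for the test and measured 1.07 FPKM in number 2 and 0.410 and 0.244 FPKM in numbers 1 and 3 of CM + 4OI, and 2.62 FPKM in number 2 and 0.513 and 0.329 FPKM in numbers 1 and 3 of CM. Its number 2 libraries were the highest as well, but the gene was low throughout.

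Collagens IV and VI form sheets and beaded filaments rather than fibres. Col4a1 (ENSMUSG00000031502, chr8:11198423-11312826, minus strand), a basement membrane chain, measured 7.14 FPKM in number 2 and 1.44 and 2.22 FPKM in numbers 1 and 3 of CM + 4OI, and 8.28 FPKM in number 2 and 1.77 and 2.49 FPKM in numbers 1 and 3 of CM. Col4a2, its partner (ENSMUSG00000031503, chr8:11312805-11449287, plus strand), measured 5.14 FPKM in number 2 and 1.05 and 1.75 FPKM in numbers 1 and 3 of CM + 4OI, and 5.65 FPKM in number 2 and 2.005 and 2.65 FPKM in numbers 1 and 3 of CM, with the lowest CM ratio of the 34 genes, 2.43. Col4a1 FPKM over Col4a2 FPKM came to 1.38, 1.39 and 1.27 in CM + 4OI and 0.884, 1.46 and 0.940 in CM, so this ratio varied more among the CM libraries than among the CM + 4OI libraries. Col6a1 (ENSMUSG00000001119, chr10:76708792-76726168, minus strand), a chain of the beaded collagen VI, measured 11.04 FPKM in number 2 and 1.39 and 2.77 FPKM in numbers 1 and 3 of CM + 4OI, and 14.7 FPKM in number 2 and 2.17 and 1.89 FPKM in numbers 1 and 3 of CM. Col6a2 and Col6a3, the other chains, were lower, with number 2 at 3.49 and 2.67 FPKM in CM + 4OI and at 5.42 and 4.56 FPKM in CM. Numbers 1 and 3 ranged over both genes from 0.565 to 0.745 FPKM in CM + 4OI and from 0.631 to 0.740 FPKM in CM. Col6a2 had the highest CM ratio of all 34 genes, 7.84. Col6a2, Col6a3, Mgp and Pdgfrb entered the test only because of number 2, since they were under 1 FPKM in numbers 1 and 3 of both groups. Tpm2, Col5a1, Fbn1 and Dcn also owed their place in the test to number 2, since their means fell under the filter without it.

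Collagen must be folded in the endoplasmic reticulum and crosslinked outside the cell. Serpinh1, the collagen chaperone HSP47 (ENSMUSG00000070436, chr7:99345376-99353239, minus strand), measured 14.9 FPKM in number 2 and 3.21 and 4.32 FPKM in numbers 1 and 3 of CM + 4OI, and 22.9 FPKM in number 2 and 3.09 and 4.33 FPKM in numbers 1 and 3 of CM. Lox, lysyl oxidase, the enzyme that starts collagen and elastin crosslinks, measured 14.6 FPKM in number 2 and 3.79 and 3.87 FPKM in numbers 1 and 3 of CM + 4OI, and 18.3 FPKM in number 2 and 3.62 and 3.93 FPKM in numbers 1 and 3 of CM. Both followed the collagens, with Serpinh1 ratios of 3.96 in CM + 4OI and 6.16 in CM and Lox ratios of 3.82 in CM + 4OI and 4.85 in CM. Among 28 further collagen processing genes, number 2 stood above the other libraries for 17, and for 10 of the 18 that were testable. These included Loxl2, a relative of Lox, with ratios of 3.67 in CM + 4OI and 5.15 in CM, and Fkbp10, a collagen chaperone, with ratios of 3.93 in CM + 4OI and 4.95 in CM. Plod2, a lysyl hydroxylase, had ratios of 3.65 in CM + 4OI and 3.21 in CM, and Loxl1 of 3.94 in CM + 4OI and 4.78 in CM. Of the 10, Fkbp10, Plod2, Loxl1 and Pcolce were testable only because of number 2, since their means fell under the filter without it. P4ha1, a collagen prolyl hydroxylase that many cells use, had no such excess, with ratios of 0.951 in CM + 4OI and 0.968 in CM.

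Among the matrix glycoproteins, Fn1, fibronectin (ENSMUSG00000026193, chr1:71585520-71653200, minus strand), was the most abundant at 29.2 FPKM in number 2 and 5.84 and 10.5 FPKM in numbers 1 and 3 of CM + 4OI, and 32.0 FPKM in number 2 and 7.56 and 8.84 FPKM in numbers 1 and 3 of CM. Sparc, a collagen-binding protein made by stromal cells (ENSMUSG00000018593, chr11:55394500-55423183, minus strand), measured 17.1 FPKM in number 2 and 4.26 and 4.76 FPKM in numbers 1 and 3 of CM + 4OI, and 23.8 FPKM in number 2 and 4.90 and 5.23 FPKM in numbers 1 and 3 of CM. Igfbp7, a secreted protein that binds growth factors, measured 14.1 FPKM in number 2 and 3.07 and 4.60 FPKM in numbers 1 and 3 of CM + 4OI, and 15.4 FPKM in number 2 and 3.59 and 3.77 FPKM in numbers 1 and 3 of CM. Of its exon length, 7.03% lies over Polr2b on the other strand, a gene at 11.9 to 13.0 FPKM. For all 3 genes, number 2 stood well apart from numbers 1 and 3 in both groups. Fstl1, a secreted follistatin-like protein, had ratios of 3.22 in CM + 4OI and 4.70 in CM, and Mgp, an inhibitor of tissue calcification, of 4.16 in CM + 4OI and 7.09 in CM. Fbn1, the fibrillin of elastic microfibrils, had smaller ratios of 2.92 in CM + 4OI and 3.10 in CM, and 20.1% of its exons lie over Gm9913 on the other strand, which was listed at 0 to 0.0444 FPKM. The remaining 2 genes were under the test level. Thbs2, a matricellular thrombospondin, had number 2 at 1.36 FPKM in CM + 4OI and 2.78 FPKM in CM. Postn, periostin, had number 2 at 1.43 FPKM in CM + 4OI and 1.45 FPKM in CM, with numbers 1 and 3 of both genes between 0.217 and 0.611 FPKM.

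The 3 small leucine-rich proteoglycans, which coat collagen fibrils, did not share a single pattern. Bgn, biglycan (ENSMUSG00000031375, chrX:73483602-73495933, plus strand), measured 16.2 FPKM in number 2 and 3.58 and 5.01 FPKM in numbers 1 and 3 of CM + 4OI, and 21.2 FPKM in number 2 and 4.32 and 4.44 FPKM in numbers 1 and 3 of CM. Dcn, decorin (ENSMUSG00000019929, chr10:97479609-97518143, plus strand), measured 1.34 FPKM in number 2 and 1.06 and 0.876 FPKM in numbers 1 and 3 of CM + 4OI, and 1.85 FPKM in number 2 and 0.588 and 0.705 FPKM in numbers 1 and 3 of CM, so its number 2 libraries were the highest but its ratios were only 1.39 in CM + 4OI and 2.86 in CM. Lum, lumican (ENSMUSG00000036446, chr10:97565128-97572703, plus strand), measured 0.0649 FPKM in number 2 and 0.0792 and 0.104 FPKM in numbers 1 and 3 of CM + 4OI, and 0.175 FPKM in number 2 and 0.0374 and 0.0680 FPKM in numbers 1 and 3 of CM. Lum was the 1 gene of the 34 whose number 2 library was not the highest in CM + 4OI. Dcn and Lum, both textbook fibroblast products, had the lowest CM + 4OI ratios of the 34 genes. No threshold is stated for the set, and Dcn, Fbn1 and Col4a2 had the smallest number 2 excess among its tested genes.

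The contractile and actin-binding genes mark activated fibroblasts and smooth muscle. Acta2, smooth muscle alpha-actin (ENSMUSG00000035783, chr19:34241090-34255590, minus strand), measured 21.3 FPKM in number 2 and 4.32 and 5.45 FPKM in numbers 1 and 3 of CM + 4OI, and 31.6 FPKM in number 2 and 7.68 and 6.17 FPKM in numbers 1 and 3 of CM. Tagln, the actin-binding protein SM22 (ENSMUSG00000032085, chr9:45929619-45936058, minus strand), measured 14 FPKM in number 2 and 3.64 and 4.60 FPKM in numbers 1 and 3 of CM + 4OI, and 18.5 FPKM in number 2 and 4.52 and 4.52 FPKM in numbers 1 and 3 of CM. Tagln overlaps the antisense model Gm48529 over 62.4% of its exon length, and the strand setting is not given in the sources used here, so reads of the pair cannot be told apart. Myl9, a myosin regulatory light chain (ENSMUSG00000067818, chr2:156775420-156781658, plus strand), measured 4.63 FPKM in number 2 and 1.45 and 2.14 FPKM in numbers 1 and 3 of CM + 4OI, and 8.55 FPKM in number 2 and 1.61 and 1.27 FPKM in numbers 1 and 3 of CM. Number 2 was the highest library in both groups for each of these genes. Cald1, caldesmon, had ratios of 3.53 in CM + 4OI and 4.46 in CM, and Tpm2, a tropomyosin, of 4.72 in CM + 4OI and 4.64 in CM. Of 32 further contractile genes, 10 had number 2 above the other libraries, and of the 24 testable 5 had, among them Actg2, the enteric smooth muscle actin, with ratios of 3.21 in CM + 4OI and 5.36 in CM, and Cnn3, a calponin, with ratios of 2.76 in CM + 4OI and 2.55 in CM. All of the 5 but Tpm1, namely Actg2, Cnn3, Csrp2 and Smtn, were testable only because of number 2. Their means fell under the filter without it. Actb, the cytoplasmic actin of all cells, had ratios of 0.852 in CM + 4OI and 0.801 in CM.

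The receptors and secreted signals were the least abundant role. Pdgfrb, a receptor for platelet-derived growth factor on pericytes and fibroblasts, measured 2.31 FPKM in number 2 and 0.483 and 0.654 FPKM in numbers 1 and 3 of CM + 4OI, and 2.81 FPKM in number 2 and 0.507 and 0.652 FPKM in numbers 1 and 3 of CM. Pdgfra, the other receptor of the family (ENSMUSG00000029231, chr5:75152292-75198215, plus strand), measured 0.436 FPKM in number 2 and 0.134 and 0.130 FPKM in numbers 1 and 3 of CM + 4OI, and 1.0095 FPKM in number 2 and 0.119 and 0.143 FPKM in numbers 1 and 3 of CM. Both were highest in number 2, and Pdgfra did not reach 1 FPKM except in number 2 of CM. Grem1, a secreted antagonist of bone morphogenetic proteins (ENSMUSG00000074934, chr2:113746164-113758646, minus strand), measured 10.4 FPKM in number 2 and 1.84 and 2.56 FPKM in numbers 1 and 3 of CM + 4OI, and 15.4 FPKM in number 2 and 2.51 and 2.87 FPKM in numbers 1 and 3 of CM. Cxcl12, the chemokine by which marrow stroma retains blood-forming cells, measured 1.13 FPKM in number 2 and 0.170 and 0.183 FPKM in numbers 1 and 3 of CM + 4OI, and 1.74 FPKM in number 2 and 0.320 and 0.338 FPKM in numbers 1 and 3 of CM. Its CM + 4OI ratio of 6.42 was the highest of the 34 genes. Of 4 genes for platelet-derived growth factors, none had number 2 above the other libraries, and of 26 further matrix receptor genes 8 had, of which 1 was among the 16 testable. This count sets number 2 of CM + 4OI against the CM libraries too, so a gene that is lower with 4OI can miss it. Of the growth factor genes, only Pdgfc was highest in number 2 within each group, with ratios of 1.29 in CM + 4OI and 1.39 in CM.

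Timp1 and Cyp1b1 complete the set. Timp1, a secreted inhibitor of matrix metalloproteinases (ENSMUSG00000001131, chrX:20870166-20874735, plus strand), measured 54.2 FPKM in number 2 and 15 and 16.4 FPKM in numbers 1 and 3 of CM + 4OI, and 81.1 FPKM in number 2 and 21.3 and 22.2 FPKM in numbers 1 and 3 of CM. Cyp1b1, a cytochrome P450 of stromal cells (ENSMUSG00000024087, chr17:79701537-79715061, minus strand), measured 8.69 FPKM in number 2 and 1.54 and 2.56 FPKM in numbers 1 and 3 of CM + 4OI, and 15.8 FPKM in number 2 and 3.38 and 3.28 FPKM in numbers 1 and 3 of CM. Timp1 alone gave 17.3% to 23.1% of the summed FPKM of the 34 genes in a library, and the 5 highest genes together gave 43.9% to 48.9%. The levels of the genes relative to each other were broadly similar in all libraries. Across the 34 genes the log2 FPKM of any pair of libraries correlated with a Pearson r between 0.944 and 0.987, which does not measure their order. This is a description across genes, which are not independent replicates and share lengths and library depth. Of the 34 genes, 20 reached 1 FPKM in all 6 libraries.

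**Figure D2:**
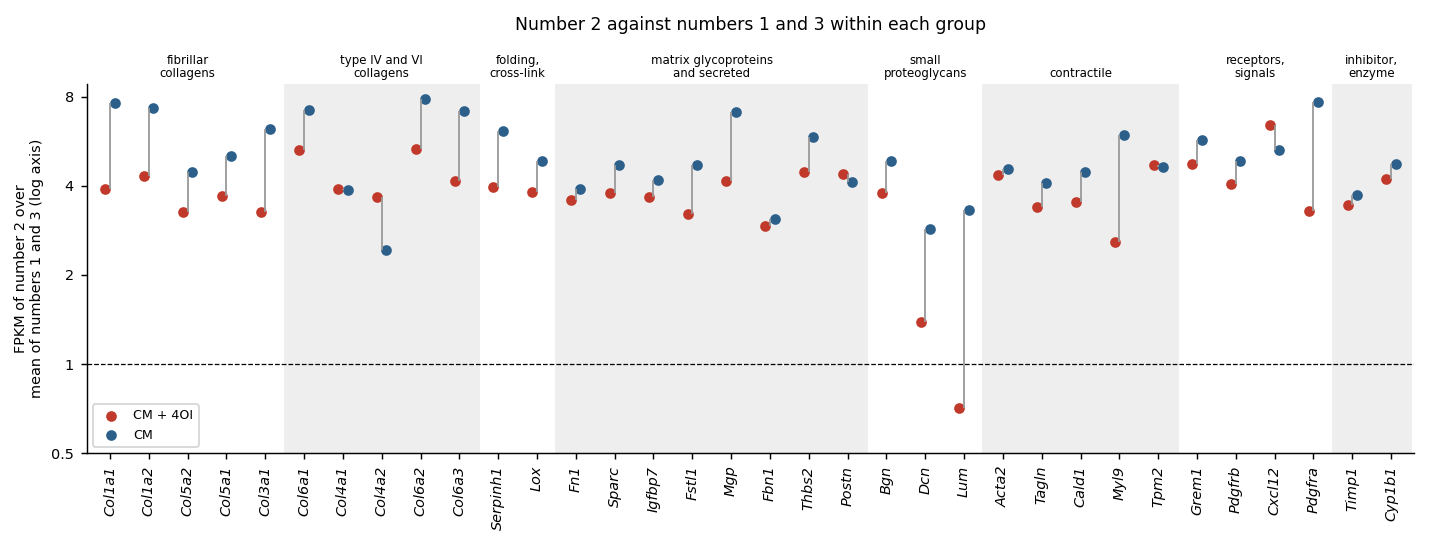
FPKM in number 2 over the mean FPKM of numbers 1 and 3, on a log axis, for each of the 34 genes in CM + 4OI and in CM. Medians are 3.81 in CM + 4OI and 4.796 in CM, and Lum in CM + 4OI, at 0.710, is the only point under 1.

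Other genes had the same library pattern. Likeness was measured as the smaller of the 2 group log2 differences between number 2 and the mean of numbers 1 and 3, on log2(FPKM + 1) over the 6 libraries, and 58 tested genes outside the set also reached a ratio of 2 in both groups. The most alike were sought among tested genes with an established symbol, leaving out provisional names such as those with Gm or Rik. The 15 most alike of these were Timp3, Col12a1, Aebp1, Tnc, Sema7a, Ppic, Serpinb2, Inhba, Gpx8, Loxl2, Nhlrc3, Cyr61, Mt2, Rcn3 and Ddit4, with likeness between 1.19 and 1.58. Gpx8 and Rcn3 were testable only because of number 2, since their means fell under the filter without it. Timp3, a matrix-bound metalloproteinase inhibitor, measured 14.6 FPKM in number 2 and 4.19 and 4.28 FPKM in numbers 1 and 3 of CM + 4OI, and 26.9 FPKM in number 2 and 6.14 and 5.74 FPKM in numbers 1 and 3 of CM. Tnc, tenascin C, measured 11.9 FPKM in number 2 and 3.08 and 4.10 FPKM in numbers 1 and 3 of CM + 4OI, and 16.7 FPKM in number 2 and 4.797 and 4.70 FPKM in numbers 1 and 3 of CM. Ratios of Col12a1, a fibril-associated collagen, were 4.86 in CM + 4OI and 5.44 in CM, and those of Aebp1, a collagen-binding secreted protein, were 3.43 in CM + 4OI and 4.81 in CM. Not all of the 15 are matrix genes: Mt2 encodes a metallothionein and Ddit4 a stress-induced inhibitor of mTOR signalling, with ratios of 2.51 in CM + 4OI and 3.29 in CM for Mt2 and 3.24 in CM + 4OI and 2.54 in CM for Ddit4. These genes were picked by the pattern, so their ratios are a description too.

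**Figure D3:**
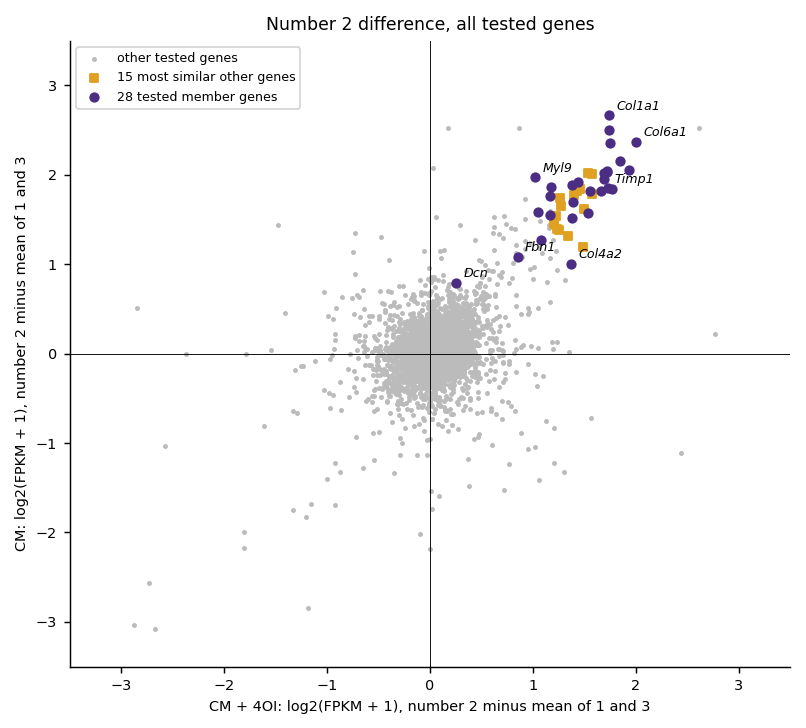
Difference in log2(FPKM + 1) between number 2 and the mean of numbers 1 and 3, in CM + 4OI and in CM, for the 28 tested genes of the set (purple circles), the 15 most alike other genes (yellow squares) and the rest of the 10468 tested genes (grey). The 15 were taken from genes with an established symbol. The 28 genes lie in the upper right, 3 other genes fall outside the axes, and most genes lie near 0 on both axes.

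Further lists showed how far the pattern reached. Of 45 other matrix genes, number 2 was above the other libraries for 27, and for 8 of the 15 testable, including Hspg2, perlecan, with ratios of 3.59 in CM + 4OI and 4.63 in CM and Nid1, nidogen, with ratios of 3.39 in CM + 4OI and 4.41 in CM. Of the 8, Hspg2, Nid1 and Fbln2 were testable only because of number 2, since their means fell under the filter without it. Of 30 genes of the transforming growth factor beta pathway and its targets, 9 had the pattern, and of the 20 testable 5 had, among them Ctgf, a matricellular target, with ratios of 2.52 in CM + 4OI and 3.25 in CM. Of 35 markers of mesenchymal cells other than the set, 14 had number 2 above the other libraries, but only 11 were testable and 2 of those had it. These 2, Loxl1 and Serping1, were under 1 FPKM in numbers 1 and 3 of both groups. They were therefore testable only because of number 2, and Loxl1 is also in the collagen processing list. Prrx1, a limb and stromal transcription factor, measured 1.48 FPKM in number 2 and 0.336 and 0.385 FPKM in numbers 1 and 3 of CM + 4OI, and 2.22 FPKM in number 2 and 0.395 and 0.520 FPKM in numbers 1 and 3 of CM. Cdh11, a fibroblast cadherin, measured 1.64 FPKM in number 2 and 0.422 and 0.535 FPKM in numbers 1 and 3 of CM + 4OI, and 2.29 FPKM in number 2 and 0.484 and 0.437 FPKM in numbers 1 and 3 of CM. Both were highest in number 2, as in the set, but at lower levels. Thy1, a fibroblast surface protein, ranged from 0.0138 to 0.269 FPKM without the pattern. Fap, a fibroblast protease, ranged from 0.352 to 0.605 FPKM without it. Tcf21 and Igf2 were listed at 0 in all 6 libraries. Prrx1, Cdh11, Thy1, Fap, Tcf21 and Igf2 were named after their values were seen.

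Markers of other cell types were mixed. Of 11 markers of pericytes and stellate cells, none was testable, and they summed to 0.442, 1.24 and 0.586 FPKM in CM + 4OI and 0.421, 1.45 and 0.734 FPKM in CM in libraries 1, 2 and 3. Number 2 was the highest library of each group in this sum and was above the other 4 libraries for 4 of the 11 genes, all at low levels. The 13 epithelial markers, likewise untestable, summed to 0.542, 0.762 and 0.688 FPKM in CM + 4OI and 0.642, 1.03 and 0.837 FPKM in CM, with number 2 again the highest of each group and 5 genes at 0 in every library. That excess came from Sox9, at 0.0461, 0.377 and 0.119 FPKM in CM + 4OI and 0.0661, 0.629 and 0.224 FPKM in CM. Cdh1, the highest of the 13, was lowest in number 2, at 0.432, 0.283 and 0.479 FPKM in CM + 4OI and 0.576, 0.308 and 0.554 FPKM in CM. Number 2 was above the other 4 libraries for 2 of the 13. The 12 endothelial markers summed to 19.1, 20.5 and 18.7 FPKM in CM + 4OI and 36.1, 34.2 and 33.6 FPKM in CM. The 10 osteoblast markers summed to 11.1, 15.1 and 14.8 FPKM in CM + 4OI and 4.18, 7.86 and 5.58 FPKM in CM, with number 2 the highest library of each group. Most of that sum was Phospho1, at 9.22, 12.45 and 12.42 FPKM in CM + 4OI and 3.16, 5.32 and 4.44 FPKM in CM. Number 2 was above the other 4 libraries for 3 of the 12 endothelial and 2 of the 10 osteoblast genes, all of them under the test level, and for none of the 4 endothelial and 2 osteoblast genes that were testable. Acinar markers, those of the cell type that conditioned the medium, ran the other way, and the 24 genes summed to 22.5, 12.02 and 19.2 FPKM in CM + 4OI and 17.4, 11.1 and 18.3 FPKM in CM. Number 2 was the lowest library of each group in these sums, and it was below the other 4 libraries for 3 of 6 testable genes (2.5% of all tested genes). The part of any of these cell types in the pattern was not tested.

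Within a replicate number, CM + 4OI can be set against CM as a ratio of 1 library to 1, with no test. It was below 1 for 29, 34 and 18 of the 34 genes in numbers 1, 2 and 3. Among the 28 tested genes the counts were 25, 28 and 13, where 38.1%, 40.6% and 40.1% of all tested genes were lower. The median ratio over the 34 genes was 0.788 in number 1, 0.671 in number 2 and 0.991 in number 3, against 1.06, 1.05 and 1.06 for all tested genes. In number 3 the ratios spread on both sides of 1, and in number 2 every one of the 34 lay under 1. CM + 4OI was below CM in all 3 numbers for 15 of the 34 genes and for 11 of the 28 tested (23.6% of all tested genes), and above it in all 3 for none (42.7%). No gene had all CM + 4OI libraries below all CM libraries (17.8% of all tested genes) or above them (31.2%).

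**Figure D4:**
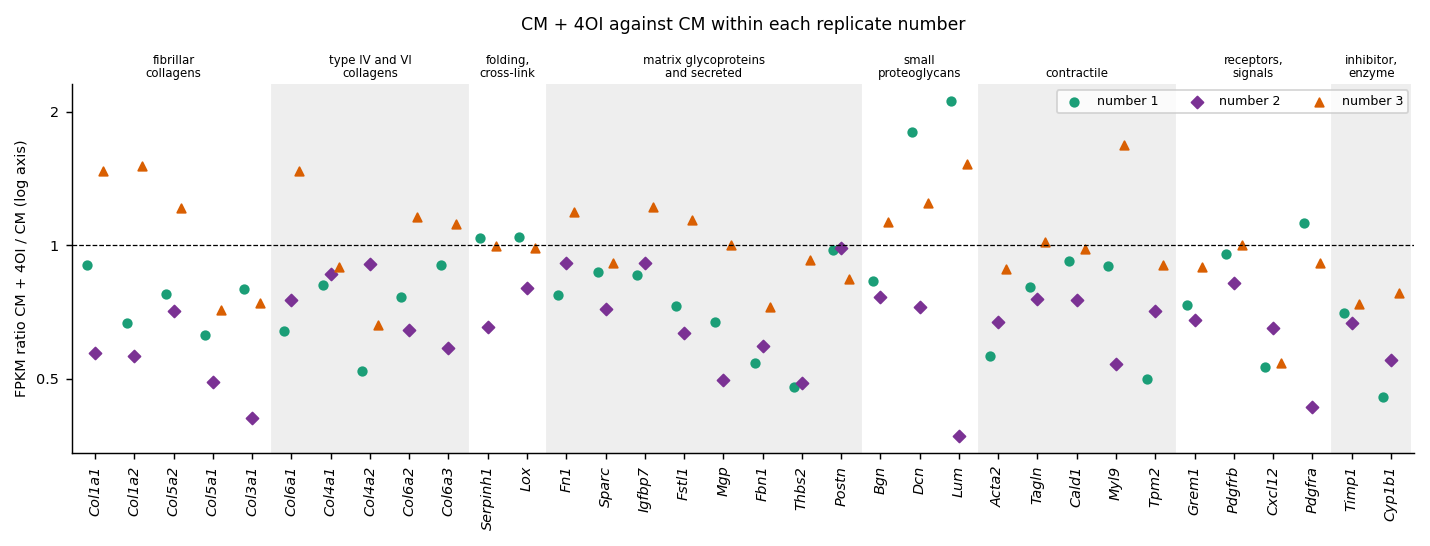
FPKM in CM + 4OI over FPKM in CM within replicate numbers 1, 2 and 3, on a log axis, 1 point per gene for the 34 genes grouped by role and number, with a dashed line at 1. The median ratios are 0.788, 0.671 and 0.991 in numbers 1, 2 and 3, and the points of number 2 all lie under 1.

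The comparison of CM + 4OI with CM across all genes was made with limma on log2(FPKM + 1), with Benjamini-Hochberg adjustment over 10468 genes. In all, 2020 genes were higher (19.3%) and 1385 lower (13.2%), or 32.5% in either direction. Of the 28 tested genes of the set, none was called in either direction, none had an unadjusted p under 0.05, and limma adjusted p-values lay between 0.456 and 0.985. Their median log2 fold change was -0.19 with 27 of 28 negative, against a median of 0.064 for all tested genes. The median SE was 0.63 for the 28 genes and 0.073 for all. Col1a1 averaged 8.38 ± 7.13 FPKM in CM + 4OI and 12.2 ± 14.6 FPKM in CM (SD, n = 3 each), a log2 fold change of -0.15 (SE 0.85, 95% interval -2.19 to 1.89, limma adjusted p = 0.912). Fn1 averaged 15.2 ± 12.4 FPKM in CM + 4OI and 16.1 ± 13.8 FPKM in CM (SD, n = 3 each), a log2 fold change of -0.075 (SE 0.70, 95% interval -1.75 to 1.60, limma adjusted p = 0.949). These intervals allow a halving or more as well as a doubling or more, and the groups overlapped.

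With the replicate number as a block, the median SE of the set was 0.11 and 4 of the 28 genes (14.3%) were called lower with 4OI. This fit takes the numbers as pairing the samples, which the labels do not state. Among all tested genes in this fit 14.5% were called lower, 22.3% higher and 36.9% in either direction, so the share called lower in the set was near the background. None of the 28 was called higher. Timp1 averaged 28.5 ± 22.2 FPKM in CM + 4OI and 41.5 ± 34.2 FPKM in CM (SD, n = 3 each), with within-number ratios of 0.704, 0.668 and 0.739, and its log2 fold change was -0.49 (95% interval -0.60 to -0.37, adjusted p = 0.00190) in limma with the block. Cyp1b1 had within-number ratios of 0.455, 0.550 and 0.783 and a log2 fold change of -0.61 (95% interval -0.95 to -0.28, adjusted p = 0.0215) in that limma fit. Each of these ratios was under 1. Fbn1 had ratios of 0.542, 0.592 and 0.724 and -0.40 (95% interval -0.63 to -0.16, adjusted p = 0.0272), and Acta2 ratios of 0.562, 0.673 and 0.884 and -0.47 (95% interval -0.78 to -0.16, adjusted p = 0.0361), by the same limma fit. Without the block the limma adjusted p-values of these 4 genes were 0.619 for Timp1, 0.539 for Cyp1b1, 0.456 for Fbn1 and 0.674 for Acta2. Col4a2 and Grem1 stood just outside the threshold in the block fit, at limma adjusted p = 0.05003 for Col4a2 and 0.0526 for Grem1. An unadjusted p under 0.05 was reached by 10 of the 28 genes (35.7%) in the block fit, against 5053 (48.3%) of all tested genes.

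Leaving out number 2 of both groups left 20 genes of the set above the filter. Of these, 1 was called lower, Timp1, with a log2 fold change of -0.45 (limma adjusted p = 0.0179), and none higher, where 9.85% of 10362 genes were lower, 10.7% higher and 20.6% called in either direction. The median log2 fold change of the 20 genes was then -0.047. Fbn1, called lower in the block fit, was not among the 20, so it was tested there only because of number 2.

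**Figure D5:**
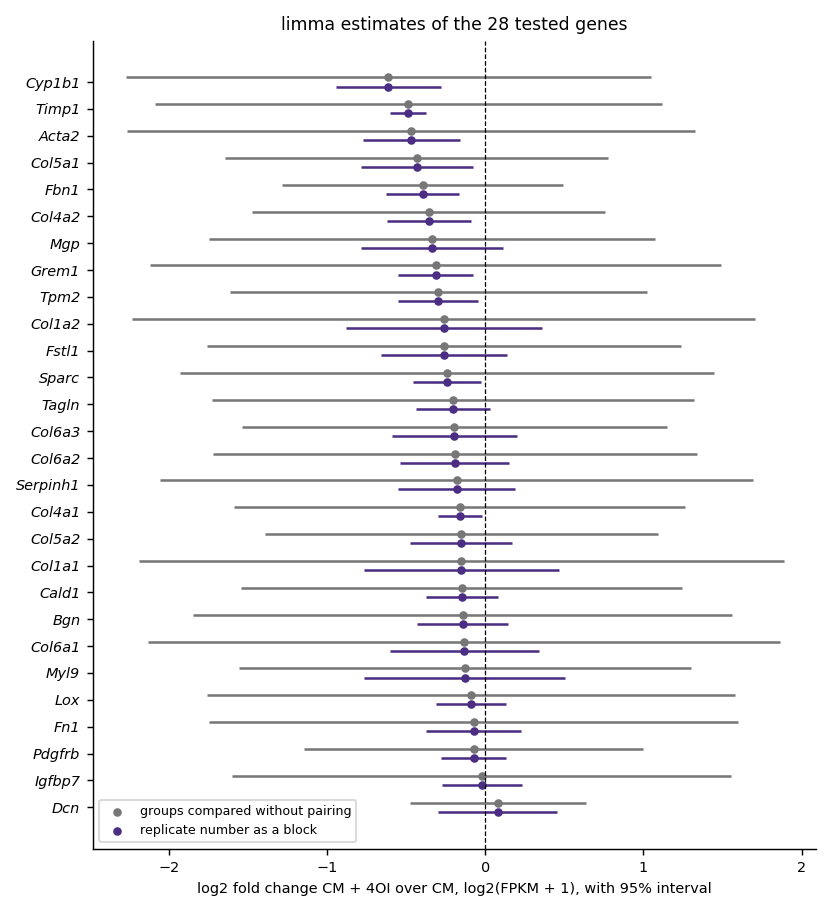
Log2 fold change of CM + 4OI over CM with 95% intervals, for the 28 tested genes, from limma without and with the replicate number as a block. Every interval without the block spans 0, while 10 intervals with the block lie under 0 (an unadjusted p under 0.05, which 48.3% of all tested genes reach in that fit), of which 4 pass after adjustment (Timp1, Cyp1b1, Fbn1 and Acta2).

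Genes of the same pathways outside the set included genes called with 4OI. The counts below stand beside shares of all tested genes of 13.2% lower and 19.3% higher, and of 14.5% lower and 22.3% higher with the block. P4ha1 was at 41.6, 37.4 and 37.0 FPKM in CM + 4OI and 68.2, 61.5 and 59.0 FPKM in CM and fell (log2 fold change -0.69, adjusted p = 0.000727 by limma). Of the 18 testable collagen processing genes, 2 fell and 2 rose, and with the block 5 fell and 2 rose. Loxl1, 1 of those 5, was testable only because of number 2. Vcan, versican, a large matrix proteoglycan, was at 1.59, 2.05 and 1.64 FPKM in CM + 4OI and 5.17, 6.29 and 5.34 FPKM in CM and fell (log2 fold change -1.26, adjusted p = 0.000206 by limma), and Lamc1, a laminin chain, was at 8.41, 9.32 and 8.65 FPKM in CM + 4OI and 4.39, 6.03 and 4.34 FPKM in CM and rose (log2 fold change 0.74, adjusted p = 0.00381 by limma). In the other matrix list 1 of 15 fell and 2 rose, and with the block 2 fell and 2 rose. Contractile genes went both ways, with 5 of 24 falling and 5 rising, and 5 falling and 6 rising with the block. Actb fell (log2 fold change -0.69, adjusted p = 0.00546 by limma), while Myh9, a non-muscle myosin heavy chain, rose (log2 fold change 0.82, adjusted p = 6.51e-05 by limma).

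Of the 3 testable genes for ligands of the platelet-derived growth factor receptors, 2 fell, and 3 fell with the block. Pdgfa was at 6.85, 4.47 and 4.69 FPKM in CM + 4OI and 11.3, 8.15 and 7.64 FPKM in CM (log2 fold change -0.66, adjusted p = 0.0348 by limma), and Pdgfb at 3.02, 2.58 and 2.58 FPKM in CM + 4OI and 5.36, 4.61 and 4.53 FPKM in CM (log2 fold change -0.65, adjusted p = 0.00158 by limma). Of their receptors in the set, Pdgfra was not testable, and Pdgfrb was not called, with a log2 fold change of -0.074 (SE 0.45, 95% interval -1.15 to 1.00, limma adjusted p = 0.918). In the transforming growth factor beta list 7 of 20 fell and 1 rose, and 10 fell and 2 rose with the block. Smad3, a signal transducer of the pathway, was at 1.07, 1.60 and 1.07 FPKM in CM + 4OI and 3.12, 3.86 and 3.06 FPKM in CM and fell (log2 fold change -0.96, adjusted p = 0.00164 by limma). Eng, the co-receptor endoglin, fell as well (log2 fold change -0.71, adjusted p = 0.000750 by limma). Among 16 testable matrix receptors, 7 fell and 1 rose, and 8 fell and 2 rose with the block. Itga4, an integrin chain that binds fibronectin, was at 2.86, 3.03 and 3.06 FPKM in CM + 4OI and 10.1, 10.5 and 9.48 FPKM in CM and fell (log2 fold change -1.47, adjusted p = 1.99e-05 by limma). Cxcr4, the receptor of Cxcl12, fell to a lesser degree (log2 fold change -0.48, adjusted p = 0.0122 by limma). Number 2 over numbers 1 and 3 was 1.02 in CM + 4OI and 1.07 in CM for Itga4, and 0.922 in CM + 4OI and 0.933 in CM for Pdgfb.

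Cell type lists also held called genes. In the mesenchymal list 3 of 11 rose and 1 fell, and 3 rose and 3 fell with the block, including Kitl, stem cell factor (log2 fold change 0.63, adjusted p = 0.00197 by limma). Loxl1, testable only because of number 2, was among the 3 that fell with the block. Both testable osteoblast genes rose, with and without the block: Phospho1, a phosphatase of mineralisation (log2 fold change 1.23, adjusted p = 0.00282 by limma), and Runx2, a transcription factor of bone (log2 fold change 0.54, adjusted p = 0.0112 by limma). Of 4 testable endothelial genes 3 fell, led by Kdr (log2 fold change -1.52, adjusted p = 0.000357 by limma), and with the block 3 fell and 1 rose. Of 20 macrophage genes 6 fell and 2 rose, including Mertk, a receptor for dying cells, which fell (log2 fold change -0.79, adjusted p = 0.000385 by limma), and with the block 7 fell and 3 rose. In the acinar list 1 of 6 rose, with and without the block.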

How the data were processed

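RNA from 6 cultures (3 CM + 4OI and 3 CM) was sequenced as paired 150 nt reads, per the labels. The deposited FPKM values were calculated by the authors for 55335 genes; per the submitters' processing notes, FastQC 0.11.2 and build mm10 were used, and for aligner, quantifier and strand setting the sources used here give nothing. Gene positions are from GENCODE M21 (99.7% of IDs matched). Fragment counts could not be recovered, since 45.9% to 49.3% of low values came within 0.1 of a whole number, so no count test was used. Depth was estimated from the smallest repeated FPKM step.

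The members and all gene lists were chosen with earlier results of these data known. Genes with a mean of at least 1 FPKM (10468, of which 28 of the 34 members) entered two-sided limma tests (limma 3.58.1, R 4.3.3) with a variance trend, run on log2(FPKM + 1) and called at an adjusted p under 0.05. This scale understates changes of genes at low levels. Without the block, p-values set a difference against the spread between cultures of a group. With the block, they set it against the spread left after the replicate numbers are fitted. All 34 members were named, and of each further list up to 4 called genes with the largest change and up to 4 with the largest number 2 excess, plus the 15 genes most like the set among those with an established symbol. Not every gene that this rule took is reported here. The numbers were treated as pairing the samples, which the labels do not state. Same-numbered libraries deviated together from their group means, with r = 0.344, 0.427 and 0.185 for numbers 1, 2 and 3, and at most 0.0262 otherwise. These r values come from the same data, number 2 included. Centring on group means makes them depend on each other, so the pairing is an inference. Alternatives were a pseudocount of 0.1, no filter, a filter of 5 FPKM, median-of-ratios scaling, quantile normalization, the replicate block, leaving out each library and leaving out number 2. Itgam, with 2 IDs, was left out of the marker list. Tables and plots used Python 3.11.15, pandas 2.3.3, numpy 2.4.6 and matplotlib 3.10.9.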

Additional observations from a re-analysis of the deposited data

Results flagged for a closer look

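Lum, the proteoglycan lumican, went opposite ways in the 2 groups: number 2 over the mean of numbers 1 and 3 was 0.710 in CM + 4OI and 3.32 in CM. It measured 0.0649 FPKM in number 2 and 0.0792 and 0.104 FPKM in numbers 1 and 3 of CM + 4OI, and 0.175 FPKM in number 2 and 0.0374 and 0.0680 FPKM in numbers 1 and 3 of CM, the lowest levels of the 34 genes, and the difference between the groups was not tested. At the estimated depths these values stand for about 2 to 10.7 fragments per library, so the opposite directions rest on very few fragments.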

How the results depend on the processing

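No tested gene of the set was called in either direction under 5 of the alternatives: a pseudocount of 0.1, median-of-ratios scaling and quantile normalization (28 genes tested), no filter (34) and a filter of 5 FPKM (15). None was called when single libraries were left out (26 to 29 genes tested). With the replicate block 4 were called lower, and without number 2 of both groups 1 was, while the number of all genes called higher was 1110 without number 2, 2336 with the block and 2020 in the main comparison. It ranged from 1302 to 1868 when single libraries were left out, the lowest without CM + 4OI replicate 2. Under median-of-ratios scaling, 1392 genes were higher and 1695 lower, so that 45.1% of calls were higher, against 59.3% as deposited. The block changed no other call of the set.

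Leaving out 1 library leaves its same-numbered partner unmatched, so number 2 weighs unequally in the 2 groups of those fits. Over all alternatives 64 fold changes had the opposite sign, 24 of them without CM replicate 2, 20 without CM + 4OI replicate 1 and 12 without CM + 4OI replicate 3, and the median log2 fold change of the set was -0.72 without CM + 4OI replicate 2, and 0.40 when CM replicate 2 was left out. Leaving out 1 library at a time, log2 fold changes ran as follows: Timp1 from -1.06 to 0.13, Fn1 from -0.66 to 0.54, Acta2 from -1.11 to 0.21, Col1a1 from -0.73 to 0.74, Sparc from -0.82 to 0.43, Bgn from -0.72 to 0.54, Serpinh1 from -0.77 to 0.60, Tagln from -0.72 to 0.40, Lox from -0.65 to 0.58. The further ranges were Igfbp7 from -0.57 to 0.58, Col1a2 from -0.85 to 0.57, Grem1 from -0.93 to 0.40, Cyp1b1 from -1.18 to 0.037, Col6a1 from -0.80 to 0.66, Fstl1 from -0.72 to 0.37, Col4a1 from -0.68 to 0.36, Cald1 from -0.61 to 0.42, Myl9 from -0.51 to 0.53. The last were Col5a2 from -0.54 to 0.37, Tpm2 from -0.76 to 0.21, Col6a2 from -0.67 to 0.45, Mgp from -0.73 to 0.28, Col5a1 from -0.78 to 0.093, Col6a3 from -0.58 to 0.39, Pdgfrb from -0.43 to 0.14, Dcn from -0.081 to 0.15. Without number 2 of both groups, the log2 fold changes that turned positive were 0.16 for Col1a1, 0.018 for Serpinh1, 0.017 for Lox, 0.030 for Igfbp7 and 0.19 for Myl9. The median log2 difference of number 2 from numbers 1 and 3 was 1.55 in CM + 4OI and 1.86 in CM, and with a pseudocount of 0.1 it was 1.91 in CM + 4OI and 2.20 in CM. In CM it was 1.83 with median-of-ratios scaling and 1.81 with quantile normalization. Without number 2 of both groups, 15 of 20 fold changes were negative, and within numbers 1, 2 and 3, 29, 34 and 18 of the 34 genes were lower in CM + 4OI. Low FPKM limit the 6 untested genes most.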

Other observations

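Some lists outside the set also differed in number 2. Of 18 cell cycle genes, of which 17 were testable, 8 had number 2 above the other libraries (7.42% of all tested genes), but by smaller ratios than the matrix genes, such as 1.33 in CM + 4OI and 1.64 in CM for Rrm2, a subunit of ribonucleotide reductase, and 1.35 in CM + 4OI and 1.61 in CM for Cdk1, the mitotic kinase. In the CM + 4OI against CM comparison 1 of these 17 genes fell, Ccnd1, cyclin D1 (log2 fold change -1.35, adjusted p = 0.00235 by limma), and 1 rose, Pcna, the polymerase clamp (log2 fold change 0.15, adjusted p = 0.0158 by limma). Of 10 neutrophil genes 3 had number 2 above the other libraries, and of the 5 testable 2 had, S100a8 at 15.5 FPKM in number 2 and 14.8 and 12.6 FPKM in numbers 1 and 3 of CM + 4OI, and 19.7 FPKM in number 2 and 12.8 and 10.1 FPKM in numbers 1 and 3 of CM, and S100a9 with ratios of 1.15 in CM + 4OI and 1.57 in CM. None of the neutrophil genes was called with 4OI by limma, in which none had an unadjusted p under 0.05. Of the dendritic cell markers only Bst2, an interferon-induced membrane protein, was testable, and it fell with 4OI (log2 fold change -0.40, adjusted p = 0.0232 by limma). Of 3 testable markers of lymphoid, mast, erythroid and platelet cells, none was called by limma, none at an unadjusted p under 0.05 and 1 with the replicate block at that unadjusted level.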
